A study of Mus musculus with 5 samples.

Results

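The globin genes were chosen as every gene whose symbol starts with Hba- or Hbb- in the tables of miRNA-target interactions, of which 7 encode globin chains: Hba-a1, Hba-a2 and Hba-x on chromosome 11, and Hbb-bs, Hbb-bt, Hbb-y and Hbb-bh1 on chromosome 7. These are 7 genes of 22714 with a listed cluster at any stage. The 4 other symbols that the rule finds, Hba-ps4, Hbb-bh0, Hbb-bh2 and Hbb-bh3, are given on their own. The tables came from Ago HITS-CLIP, in which RNA is crosslinked to Argonaute (Ago) protein by UV light, pulled down with antibodies and sequenced, and overlapping reads are grouped into clusters that are searched for miRNA seed matches. Livers of C57BL/6 mice (C57BL/6J in the study's methods) were taken from fetuses (e12.5, e15.5 or e18.5), pups (P7) and adults, and each stage has 1 library here. Ago2 antibodies were used at all 5 stages, and an Ago1 antibody was added at P7 and in the adult, so that the antibody and the step from fetal to postnatal liver cannot be told apart. The labels name no genotype or treatment beyond the strain, and fetal liver holds blood-forming cells beside hepatocytes.

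Haemoglobin is a tetramer of alpha-type and beta-type globin chains, each holding a haem. Primitive erythroid cells from the yolk sac are the main source of the embryonic-type chains zeta (Hba-x), epsilon-y (Hbb-y) and beta-h1 (Hbb-bh1), and definitive erythroid cells, which mature in the fetal liver and later in bone marrow and spleen, make the later-type chains alpha (Hba-a1 and Hba-a2) and beta (Hbb-bs and Hbb-bt). The liver is the main blood-forming organ of the fetus, and it loses that role around birth. A miRNA guides Ago to an mRNA mainly through its seed, bases 2 to 8 from its 5′ end, and a match of 6 bases (6mer) is the weakest of the listed types, below the 7mers and the 8mer.

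The sequences around the stop codon are shown because the highest read numbers on the alpha-globin mRNA lay there. Each line gives 30 bases of the mRNA strand from the RefSeq sequence of GRCm38 (mm10), 5′ to 3′, with the stop codon in capitals. On the plus strand of chromosome 11, the line of Hba-a1 is chr11:32284371-32284400, that of Hba-a2 chr11:32297188-32297217 and that of Hba-x chr11:32277988-32278017. On the minus strand of chromosome 7, the line of Hbb-bs is chr7:103826656-103826685, that of Hbb-bt chr7:103812647-103812676, that of Hbb-y chr7:103851865-103851894 and that of Hbb-bh1 chr7:103841743-103841772. Each holds the end of the coding sequence in the last exon and the first bases of the 3′UTR.
Hba-a1: ctgacctccaagtaccgtTAAgctgccttc
Hba-a2: ctgacctccaagtaccgtTAAgctgccttc
Hba-x: ctgactgagaagtaccgcTAAgctccaccg
Hbb-bs: ctggctcacaagtaccacTAAacccccttt
Hbb-bt: ctggctcacaagtaccacTAAgcccctttt
Hbb-y: ctgtcccacaagtaccacTGAgccctctct
Hbb-bh1: ctgtcccacaagtaccatTAAactccattc
Hba-a1 and Hba-a2 were the same at all 30 bases. The other 5 genes matched Hba-a1 at 19 to 23 of the 30 bases, with the lowest number in Hbb-y and the highest in Hbb-bh1.

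The copies have to be read together. The coding sequences of Hba-a1 and Hba-a2 differed at 1 of 429 bases, and those of Hbb-bs and Hbb-bt at 1 of 444 bases. At e12.5, 164 of the 211 sites that both alpha copies held had exactly the same read number, and the shares of such sites were 77.7% to 86.9% over the 5 libraries. For the beta copies the shares were 81.4% to 90.3%. A read number of one copy is therefore not a measure of that copy alone, and the copies are uncertain where their sequences are the same.

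The 5 tables held between 76948 clusters, at e18.5, and 208193 clusters, at e12.5. The summed reads of all clusters ranged from 13008703 at e18.5 to 44867326 at e12.5. Levels are given as reads per 1000000 of that sum (RPM), with a cluster's read number taken as the highest of its sites, and the lowest number listed was 5 reads. The column of read numbers is named differently at e12.5 from the other stages, and whether it is the same measure there is not known. Clusters with an mRNA region took 13.5% of the summed reads in the adult and 20.5% to 30.0% at the other stages. Each of the fetal tables held 2 lists, which the labels do not describe and which were added up. Values said to be in stage order run from e12.5 through e15.5, e18.5 and P7 to the adult. Intervals in brackets are Wilson 95% intervals. They cover counting error only and take reads as independent, although amplified reads can be copies of the same molecule.

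Among clusters with an mRNA region, those of the later-type globin genes were among the highest of the fetal livers, and globin reads were far lower in the adult liver. The 7 genes together had 65039.9 RPM [64968, 65112], 86645 [86509.7, 86781], 95099 [94939.8, 95259], 34212 [34124, 34299.5] and 1629 [1613, 1644] in stage order. The level was 39.9-fold higher at e12.5 than in the adult, 2.78-fold higher at e18.5 than at P7 and 21.0-fold higher at P7 than in the adult. The 3 fetal libraries lay within 1.46-fold of each other with all clusters. When the clusters over the alpha-globin stop codon were left out, e15.5 stood 2.03-fold above e12.5 and 2.28-fold above e18.5, and the order of e12.5 and e18.5 turned, with e12.5 then 1.12-fold higher. Without these clusters e12.5 stood 44.8-fold and P7 13.5-fold above the adult, and e18.5 stood 2.95-fold above P7. The levels also moved with the lists, which had 50969 and 71972 RPM of their own reads on globins at e12.5, and 99684 and 77595 at e18.5. Fewer erythroid cells and less globin RNA on Ago per cell cannot be told apart in whole liver. Of the summed reads of clusters with an mRNA region, the globin genes took 27.9%, 29.2%, 31.7%, 16.7% and 1.21% in stage order. These levels and shares add both copies of alpha and of beta globin, so reads listed on both count for each copy. At e12.5, for example, Hba-a1 had 1336862 reads and Hba-a2 1336847. With near-identical copies counted once, e12.5 stood 39.7-fold above the adult.

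**Figure D1:**
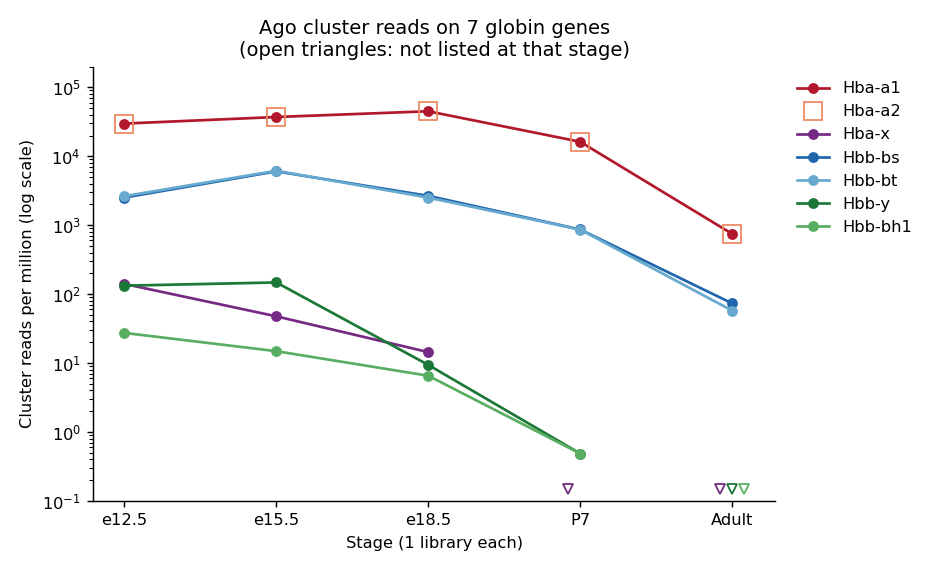
Cluster RPM (log axis) of the 7 globin genes by stage, 1 library per stage, with lines joining the stages at which a gene was listed and open triangles where it was not. The marks of Hba-a1 and Hba-a2 coincide between 749 in the adult and 44948 at e18.5, and the embryonic-type genes reach at most 147 and are not listed in the adult library.

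Most of this signal came from the alpha-globin genes Hba-a1 and Hba-a2, which encode the later-type alpha chain. Hba-a1 had 29796 RPM, 37114, 44948, 16242 and 749 in stage order, and Hba-a2 differed from it by less than 1 RPM in each library. Among the genes with a cluster in an mRNA region, Hba-a1 ranked 1 at e12.5, e15.5 and e18.5, 2 at P7 and 28 in the adult. The level of Hba-a1 was 39.8-fold higher at e12.5 than in the adult.

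The beta-globin genes Hbb-bs and Hbb-bt, which encode the later-type beta chains, had their highest level at e15.5. Hbb-bs had 2515 RPM, 6039, 2664, 865 and 73.3 in stage order. Hbb-bt had 2633, 6169, 2509, 862 and 57.6 at the same stages. The summed reads of the 2 alpha genes, not scaled to length, stood 11.6-fold above those of the 2 beta genes, then 6.08-fold, 17.4-fold, 18.8-fold and 11.4-fold in stage order. Per kilobase of the annotated mRNA, Hba-a1 had 42627 RPM, 53096, 64303, 23236 and 1071 in stage order. On the same scale Hbb-bs had 4005, 9616, 4241, 1378 and 117, below Hba-a1 in every library. The size and direction of this difference depend on the clusters that hold the stop codon. They took 91.4% to 96.7% of the reads of Hba-a1 and 25.3% to 63.4% of those of Hbb-bs. At e12.5, e15.5 and P7 this cluster of Hbb-bs also held its highest coding peak, so its share is not that of the stop codon alone. With these clusters left out of both genes, Hba-a1 had 2732, 4543, 2173, 763 and 54.3 RPM per kilobase in stage order, and Hbb-bs had 1824, 3521, 2551, 751 and 87.3. Hba-a1 was then higher at e12.5, e15.5 and P7 and lower at e18.5 and in the adult, and the summed reads of the alpha genes were 0.675-fold to 1.59-fold those of the beta genes. These values use the 699-base mRNA model of Hba-a1. The 554-base model of Hba-a2, with the same reads, would put the alpha value at e18.5 above that of Hbb-bs. With the clusters left out of Hba-a1 alone, which takes most of its reads by construction, it was below the full level of Hbb-bs in every library.

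The embryonic-type genes were far below the later-type genes in each library, per kilobase of mRNA as well. Among the 11824 genes with a cluster in an mRNA region at e12.5, Hba-x ranked 221, Hbb-y 244 and Hbb-bh1 2035, and at e18.5 the ranks were 3970, 5214 and 6387 of 9897. Hba-x, the zeta chain, had 140 RPM [137, 144], 47.5 [44.3, 51.0] and 14.4 [12.46, 16.6] in the fetal libraries in stage order, and it was not listed at P7 or in the adult. Hbb-y, the epsilon-y chain, had 132 RPM [129, 136], 147 [142, 153] and 9.38 [7.86, 11.2] in these libraries, and 0.485 at P7. Hbb-bh1, the beta-h1 chain, had 27.3 RPM [25.8, 28.9], 14.8 [13.1, 16.8] and 6.53 [5.28, 8.08], and likewise 0.485 at P7. Hba-x was lower in each later fetal library, also in either list alone. The order of e12.5 and e15.5 differed between the lists for the other two. Hbb-y had 266 RPM in the first list of e12.5 and 197 in that of e15.5, but 66.3 and 129 in the second lists, and scaled to clusters with an mRNA region it was 0.875-fold at e15.5 of its level at e12.5. Hbb-bh1 had 57.2 and 16.2 RPM in the first lists but 12.6 and 14.3 in the second. From e15.5 to e18.5 both were lower in either list, and Hbb-y was lower by 14.1-fold at e18.5 than at e12.5. The P7 values of Hbb-y and Hbb-bh1 each rested on 8 reads in 1 cluster, at a site of miR-8116 that begins at -145 in both genes, counted in bases of spliced mRNA from the first base of the stop codon. Hbb-bs and Hbb-bt had 475 reads each at the same position at P7, and whether the 8 reads came from their mRNA was not tested, so that no difference between the 3 genes after e18.5 is shown. None of the 3 genes was listed in the adult.

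The embryonic-type share of all globin cluster reads was 0.461% [0.453, 0.469], 0.242% [0.234, 0.250] and 0.0318% [0.0289, 0.0352] in the fetal libraries in stage order, and 0.00283% at P7 [0.00174, 0.00460]. In the adult it was 0 of 40527 reads, and the lowest number that was listed for any cluster there was 5 reads. The share was 1.07% in the first list of e12.5 and 0.247% in the second. It also depends on the copies and on the stop codon clusters, as it was 0.910% at e12.5 with near-identical copies counted once and 3.24% without the clusters over the alpha-globin stop codon. Counted as clusters, embryonic-type genes held 20 of 43, 13 of 29, 7 of 21, 2 of 17 and 0 of 14 globin clusters in stage order.

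Compared between libraries, a gene was called lower or higher when its level differed at least 4-fold and it had at least 20 reads in 1 of the libraries. From e12.5 to e18.5, pulled down with the same antibodies, 3 of the 7 globin genes were called lower, against 20.4% of the 17324 genes compared, and the 3 were Hba-x, Hbb-y and Hbb-bh1. From e18.5 to P7, between which the Ago1 antibody was added, the same 3 were called lower, against 18.0% of genes. From P7 to the adult, again with the same antibodies, 4 of the 4 globin genes with enough reads were called lower, against 30.0% of genes, and they were the later-type genes. From e12.5 to the adult 7 of 7 were called lower, against 42.5% of genes. No globin gene was called higher in any of these 4 comparisons, against 14.8%, 18.8%, 5.37% and 12.7% of genes. With 1 library a stage these counts describe the libraries and no test was possible. Near-identical copies share reads, so that the 4 later-type genes do not count as 4 separate measurements.

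A gene absent from a library was set to 5 reads there for the ratios. From e12.5 to e18.5 the median log2 ratio was -0.07 for the globin genes and -0.42 for all genes. From e18.5 to P7 the medians were -1.62 and -0.30, from P7 to the adult -4.17 and -0.97, and from e12.5 to the adult -5.51 and -1.64. Against a single cluster at the lowest listed number of 5 reads, Hba-x was 699-fold, Hbb-y 658-fold and Hbb-bh1 136-fold higher at e12.5 than in the adult. These are not lower bounds, since only clusters with a miRNA site are listed and a gene without one can still have reads. They also depend on the scaling and on the lists.

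The reads of the alpha-globin mRNA were piled up over the stop codon in all libraries. The read number is given at each site, so that sites along an mRNA show where its reads lay, and positions are counted in bases of spliced mRNA from the first base of the stop codon, which is 0. This stretch was chosen after the values were seen. At e12.5, sites of Hba-a1 that began within 20 bases of the stop codon reached 284193 reads in the first list and 966981 in the second. The highest number beyond 40 bases was 28919 and 35265 in those lists. At e15.5 the numbers over the stop codon were 129699 and 430946, against 17474 and 23814 elsewhere. At e18.5 they were 469018 and 95934, against 13981 and 1954. At P7 the stop codon had 259178 reads against 6575, and in the adult 17690 reads against 522. The stop codon thus stood 7.42-fold to 49.1-fold above the next highest stretch in the 8 lists, and 18.1-fold to 122-fold above the median position beyond 40 bases.

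**Figure D2:**
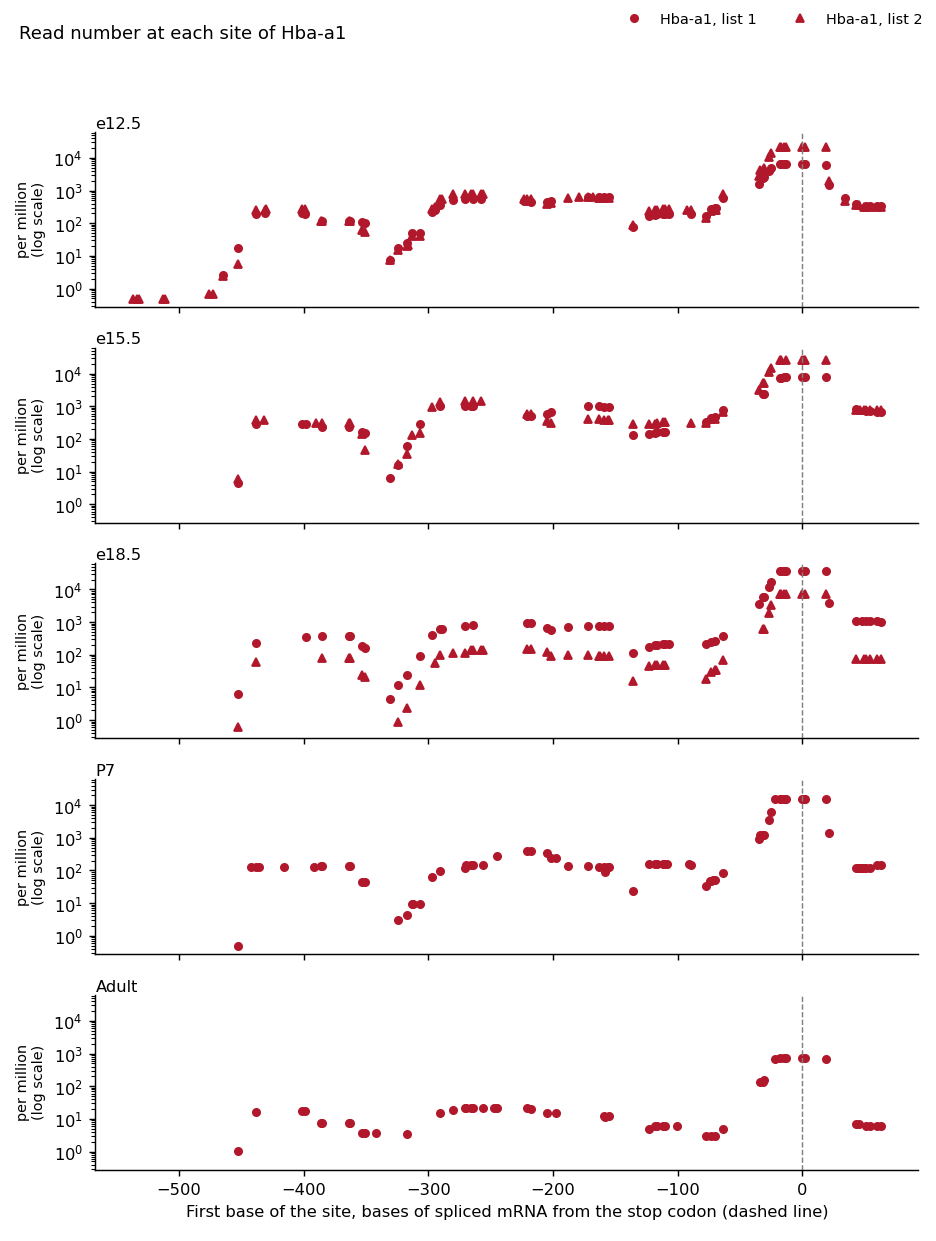
Read number at each listed site of Hba-a1 in RPM (log axis) against the position of the site's first base in the spliced mRNA, counted from the stop codon (dashed line), in 1 panel per stage, with circles for the first list of a table and triangles for the second. In each panel the sites between 18 bases before and 19 bases after the start of the stop codon form a plateau that stands above the rest of the mRNA, at 711 RPM in the adult and 15709 at P7.

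The plateau rose in steps on its 5′ side and fell over a short distance on its 3′ side. In the second list of e12.5, sites of Hba-a1 had 121878 reads at -35, 213585 at -31, 468336 at -27, 616946 at -25 and 966981 at -18, with no listed site between the last 2 positions. On the other side the number went from 954845 at 19 to 90679 at 21. Sites with at least 50% of the highest number began at -27 to -18 in the fetal lists, and the last of them began at 19 in all 8 lists. Sites with at least 90% of the highest number began between -18 and 19 in all 6 fetal lists, and between -22 and 19 at P7 and in the adult, where the outermost site was one of miR-3065-3p that the fetal tables did not list in this stretch. The cluster that holds the stop codon carried 93.6% of the reads of Hba-a1, 91.4%, 96.6%, 96.7% and 94.9% in stage order. By its highest number in a list it ranked 1 of 108607 clusters with an mRNA region at e12.5, where the same cluster of the copy Hba-a2 lay 1 read below it, and it also ranked 1, level with that of Hba-a2, at e15.5, e18.5 and P7, and 5 of 53533 in the adult. The ratio of the highest to the median position within the cluster was 11.4 to 116 over the 8 lists. Among the clusters of other genes with at least 20 site positions, the median of this ratio was 1.70 to 2.71. Larger ratios than that of the alpha-globin cluster were found in 11 and 1 of 633 such clusters for the lists of e12.5, in 3 and 0 of 59 for e15.5, in 0 of 47 for both lists of e18.5, in 1 of 313 at P7 and in 0 of 197 in the adult.

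Within this stretch 13 miRNAs were matched in at least 1 library. Those with a RefSeq mature sequence are shown with their seeds in capitals, because these sites carry the largest globin read numbers, and the other is miR-3065-3p.
miR-21a-5p: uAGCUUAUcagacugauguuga
miR-21c: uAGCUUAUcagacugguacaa
miR-540-3p: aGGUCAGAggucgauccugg
miR-6915-5p: aGGUCAGAgcagauggagguucgu
miR-1193-3p: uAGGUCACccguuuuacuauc
miR-370-5p: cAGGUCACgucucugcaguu
miR-1843b-5p: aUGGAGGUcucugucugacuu
miR-3057-5p: aUUGGAGCugagauucugcgggau
miR-693-3p: gCAGCUUUcagauguggcuguaa
miR-5623-5p: uGGCAGCUggcaagucagaaugca
miR-1968-5p: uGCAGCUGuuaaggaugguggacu
miR-31-5p: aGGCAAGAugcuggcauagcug
Of these, miR-21a-5p and miR-21c share a seed, as do miR-540-3p and miR-6915-5p, and miR-1193-3p and miR-370-5p. The site of miR-21a-5p was a 6mer, TAAGCT, that began at the stop codon itself (chr11:32284389-32284394 in Hba-a1). The site of miR-1843b-5p was the only one of the stretch listed as an 8mer and began at -15. miR-540-3p matched a 6mer at -18, miR-1193-3p a 6mer at -17, miR-3057-5p a 6mer at -13, miR-1968-5p a 6mer at 2 and miR-31-5p a 6mer at 19.

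Within a list the read numbers of these sites were nearly the same and do not rank the miRNAs. At P7, the site of miR-21a-5p had 15709 RPM, that of miR-540-3p 15691 and that of miR-31-5p 15639. Each interaction name carries a whole number that the tables do not explain, taken here as the read number of the miRNA, and these numbers differed widely. Per 1000000 of the summed numbers, miR-21a-5p had 5094, 9844, 7258, 19269 and 18860 in stage order. miR-540-3p had 1825, 645, 653, 341 and 3.80 in stage order. miR-31-5p ranged from 312 at e12.5 to 758 at P7, and miR-1843b-5p from 0.297 at e15.5 to 27.8 at e18.5. miR-21a-5p was thus the most abundant of the miRNAs matched in the stretch in each library by this number.

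The beta-globin mRNA had no such plateau. At e12.5, the highest positions of Hbb-bs were from -101 to -82, within the coding sequence, with 25150 reads in the first list and 36308 in the second, and the same stretch was highest at e15.5, with 23283 and 39946, and at P7, with 6490. In the first list of e18.5 and in the adult, the highest positions lay near the start of the coding sequence, at -390 and -391 among others, with 14778 and 969 reads. Sites within 20 bases of the stop codon of Hbb-bs reached between 0.334-fold and 0.965-fold of the highest position beyond 40 bases over the 8 lists. Within the cluster that holds the stop codon of Hbb-bs, the highest position was 1.41-fold to 4.85-fold above the median position.

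The untranslated ends of Hbb-bs and Hbb-bt differ in sequence, and there the copies could be read apart. The highest coding read numbers of both copies were the same in each list. In the 3′UTR, sites of Hbb-bs reached 24265 and 21383 reads in the lists of e12.5, 17137 and 18952 in those of e15.5, 11048 and 967 in those of e18.5, then 2935 at P7 and 461 in the adult. Sites of Hbb-bt reached 7203 and 7433, 4064 and 2244, 885 and 325, 206 and 7. Hbb-bs was the higher in each of the 8 lists, by 2.88-fold to 8.45-fold in the lists of e12.5 and e15.5, 2.98-fold in the second list of e18.5 and more in its first, 14.2-fold at P7 and 65.9-fold in the adult. The adult ratio rests on 7 reads of Hbb-bt. In the 5′UTR the order was the reverse in each list, with 7467 and 16274 reads for Hbb-bt and 4126 and 5177 for Hbb-bs at e12.5, 493 reads for Hbb-bt and no listed site of Hbb-bs at P7, and 113 against 65 in the adult. Sites in the ends of the copies differ in number and sequence, and the annotated 5′UTR has 127 bases in Hbb-bt and 53 in Hbb-bs, so these ratios compare the highest listed site of each end.

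**Figure D3:**
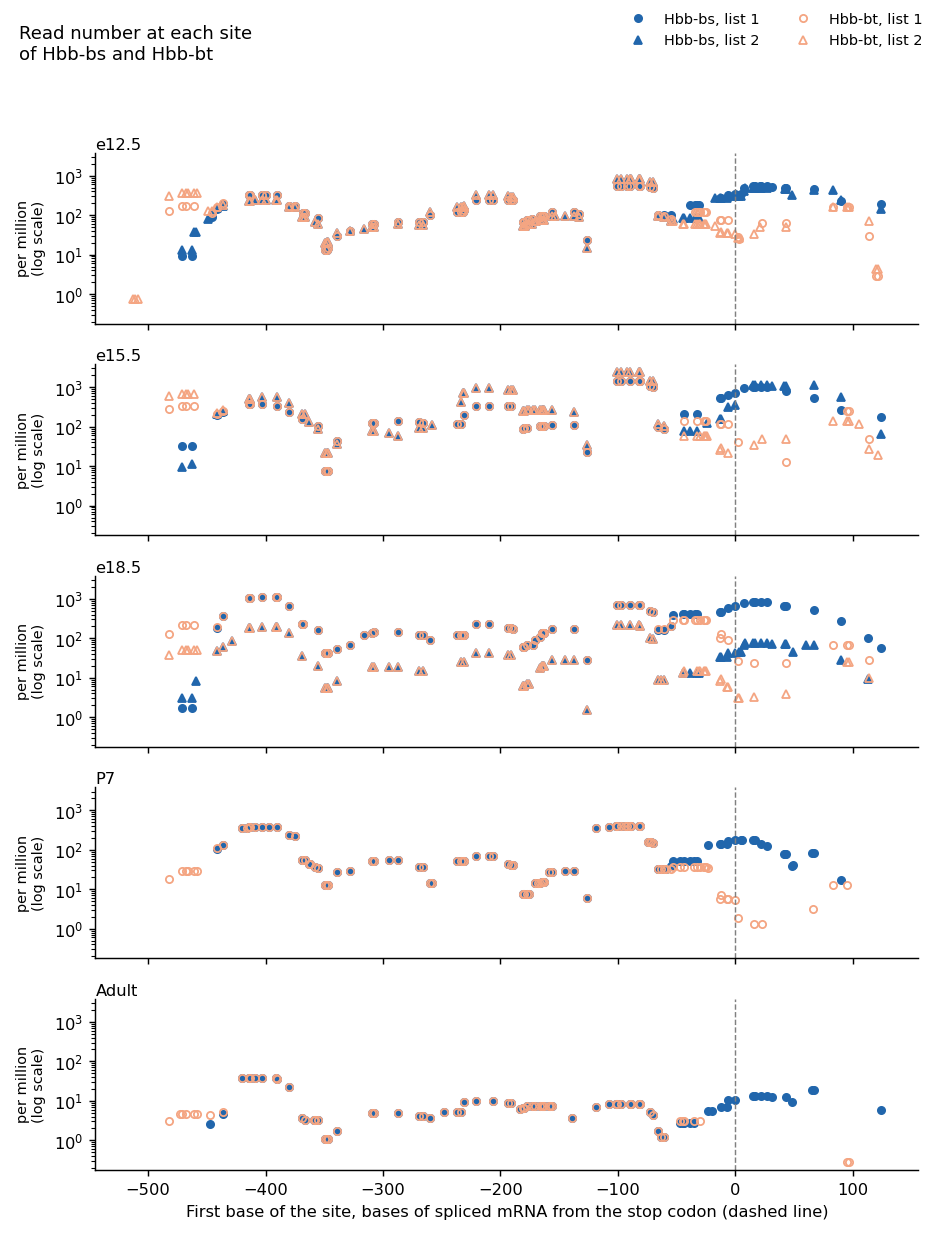
Read number at each listed site of Hbb-bs (filled) and Hbb-bt (open) in RPM (log axis) against position from the stop codon (dashed line), in 1 panel per stage, with circles for the first list and triangles for the second. The marks coincide over most of the coding sequence, and just after the stop codon those of Hbb-bs lie above those of Hbb-bt, with highest 3′UTR read numbers of 2935 and 206 at P7.

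The embryonic-type mRNAs had separate peaks that were low beside those of the later-type genes. In Hba-x, sites at -228, in the coding sequence, reached 2559 and 2602 reads in the lists of e12.5, while its stop codon window reached 260 and 91 reads. In Hbb-y the highest stretch of e15.5 lay in the 3′UTR, with 535 and 907 reads, and miR-132-3p and miR-212-3p matched there at 69. The same stretch of Hbb-y had 926 and 780 reads at e12.5, beside 950 and 488 in the coding sequence. In Hbb-bh1 the highest site of e15.5 was one of miR-127-5p at -155, with 72 and 112 reads, and the same site was highest at e18.5, with 78 and 7 reads.

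**Figure D4:**
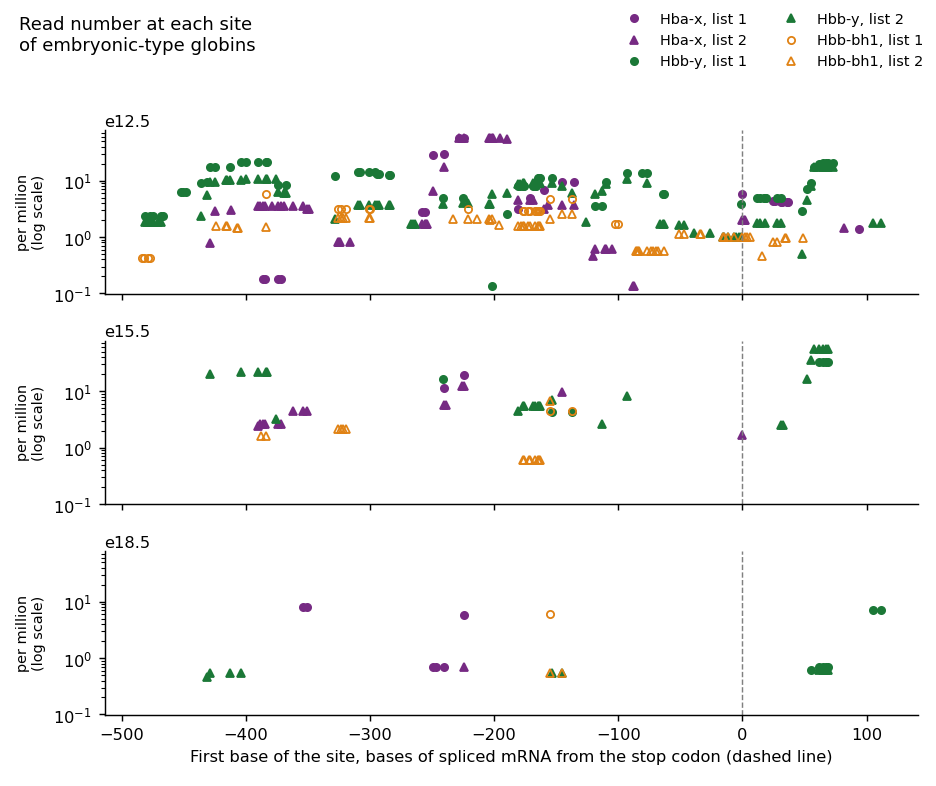
Read number at each listed site of Hba-x, Hbb-y and Hbb-bh1 in RPM (log axis) against position from the stop codon (dashed line) in the 3 fetal libraries, with circles for the first list and triangles for the second. No gene has a plateau over the stop codon, and the highest marks are those of Hba-x at -228 at e12.5 and those of Hbb-y after the stop codon at e15.5.

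Among all clusters of the 7 genes, the coding sequence was the most frequent region. Clusters that overlapped between the lists of a table were counted once, and a cluster can carry several regions. A coding region was listed for 27 of 43, 23 of 29, 17 of 21, 14 of 17 and 12 of 14 globin clusters in stage order, which is 62.8% to 85.7%. Of all clusters of the tables, 28.0% to 48.0% carried one. All clusters include those outside genes, which the choice of globin genes leaves out. A higher globin share is thus partly built in, for this region and for those below. A 5′UTR was listed for 9, 4, 4, 3 and 4 globin clusters in stage order, which is 13.8% to 28.6%, beside 2.41% to 3.60% of all clusters. An intron was listed for 22, 11, 10, 8 and 6, or 37.9% to 51.2%, beside 19.1% to 27.4%. A 3′UTR was listed for 10, 7, 6, 7 and 5, or 23.3% to 41.2%, beside 18.9% to 23.7%, and the 95% interval of the globin share held the share of all clusters in each library for the 3′UTR. Near-identical copies are counted as separate clusters in these shares. Hba-a1 had 3 coding clusters in each library, as many as its annotated exons. The share of all clusters that lay on globin genes, in contrast to the share of reads, was 0.0207% at e12.5 [0.0153, 0.0278] and 0.0172% in the adult [0.0103, 0.0289].

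In all, 450 miRNA names had a site on the 7 genes, of which 109 were found in all 5 libraries and 179 in 1. By library, 367 of 745, 226 of 589, 217 of 644, 208 of 743 and 157 of 585 listed miRNAs had a globin site in stage order. Sites of the embryonic-type genes involved 218, 75 and 24 miRNAs in the fetal libraries and 1 at P7, and those of the later-type genes 249, 185, 199, 208 and 157 from e12.5 to the adult. Of the miRNAs with at least 1000 per 1000000 of the numbers, 44 of 80 had a globin site at e12.5 and 20 of 57 in the adult. A 6mer was the seed type of 59.6% of globin entries at e12.5 and of 63.0% to 63.8% at the later stages, and of 50.9% to 52.9% of all entries.

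Sites were also sought for 12 miRNAs that the study treats as highly abundant in developing liver. A site was listed for 6 of them, which are miR-16-5p, let-7c-5p, miR-136-5p, miR-144-3p, miR-122-5p and miR-26a-5p. None was listed for the other 6, which are the erythroid miR-451a together with miR-142a-3p, miR-92a-3p, miR-30a-5p, miR-126a-3p and miR-194-5p. The sequences of those with the most reads on globins are shown with their seeds in capitals.
miR-16-5p: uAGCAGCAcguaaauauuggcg
let-7c-5p: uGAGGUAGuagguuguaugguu
miR-136-5p: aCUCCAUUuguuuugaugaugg
miR-144-3p: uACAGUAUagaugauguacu
miR-16-5p matched a 6mer at -414 in Hbb-bs, where the reads were 558 RPM, 861, 1249, 378 and 38.9 in stage order. Let-7c-5p matched a 6mer in the alpha-globin 3′UTR, at 60 and outside the plateau, with 631, 1469, 1116, 148 and 5.87 RPM. At the let-7c-5p site the reads peaked at e15.5, while the number of let-7c-5p itself was 4641 per 1000000 at e12.5 and 156074 in the adult. The 6mer of miR-136-5p, at -353 in Hba-a1, had 176 RPM at e12.5, 299 at e15.5 and 3.70 in the adult. The erythroid miR-144-3p, with 216916 per 1000000 of the numbers at e12.5, matched 1 globin site, a 6mer in the 3′UTR of Hbb-bt, which had 19.2 RPM at e15.5, against 7.11 at e12.5, and was not listed later. A site of miR-122-5p was listed in the 5′UTR of Hbb-y at e12.5 alone, with 188 reads, and one of miR-26a-5p in Hbb-bh1 at e12.5 alone, with 19.

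Genes that make haem were lower in the adult library than at e12.5 as well. The 8 enzymes of haem synthesis summed to 1288 RPM, 1775, 855, 194 and 78.2 in stage order. Alas2, the first enzyme of the pathway in erythroid cells, had 331, 663, 374, 65.3 and 3.21 in stage order. Cpox, a later enzyme of the pathway, kept 46.0 RPM in the adult against 281 at e12.5. None of the 8 was called lower at e18.5 than at e12.5, against 20.4% of all genes, and 5 were lower at P7 than at e18.5, against 18.0%. From P7 to the adult 2 of the 8 were lower, near the 30.0% of all genes, and from e12.5 to the adult 8 were lower, against 42.5%. The median log2 ratio of the 8 from e12.5 to the adult was -4.84, beside -1.64 for all genes. Of the 4 genes listed for chaperoning, export and breakdown, the alpha chain chaperone Ahsp was not listed at any stage, and 2 of the other 3 were called lower in the adult than at e12.5, against 42.5% of all genes. Hmox1, which breaks haem down, had 20.1 RPM at e12.5, 40.4 at e18.5 and 9.04 in the adult. Blvrb, which acts after it, had 43.8 at e12.5 and 5.26 in the adult, and Flvcr1, a haem exporter listed as Mfsd7b, had 3.34 at e12.5 and was not listed in the adult. Blvrb and Flvcr1 were the 2 called lower.

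Of the 12 factors that act in globin switching or in the erythroid programme, 11 were called lower in the adult than at e12.5, against 42.5% of all genes, and 8 in the adult than at P7, against 30.0%. From e18.5 to P7 the number was 6, against 18.0%, and from e12.5 to e18.5 it was 4, against 20.4%. Bcl11a, a repressor of embryonic-type globin genes, had 134 RPM, 39.0, 25.9, 2.73 and 0.844 in stage order. Klf1, an activator of the later-type beta gene, had 51.3, 77.4, 18.8 and 3.45 and was not listed in the adult. Eif2ak1, the haem-regulated kinase that slows globin translation, was the 1 not called from e12.5 to the adult, with 56.2 at e12.5 and 24.2 in the adult. Ldb1 and Zfpm1, 2 of the 12, were called higher at P7 than at e18.5, near the 18.8% of all genes. At e18.5 Ldb1 had 0.384 RPM and Zfpm1 no listed cluster. These are cluster reads on Ago and not levels of the mRNAs.

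Among the lists of cell type markers, the 12 erythroid markers other than globins summed to 2759 RPM, 4965, 1801, 488 and 12.3 in stage order. This list shares Alas2 with haem synthesis, Ahsp with the chaperone list, and Klf1 and Gata1 with the switching factors, so the lists are not separate. Of them, 11 were listed in the fetal libraries and at P7 and 6 in the adult, where the band 3 gene Slc4a1 had 0.442. All 11 that could be compared were called lower in the adult than at e12.5, against 42.5% of all genes, and than at P7, against 30.0%. From e12.5 to e18.5, 1 of the 11 was called lower, against 20.4%, and from e18.5 to P7 6 were, against 18.0%. The 7 globin genes stood 23.6-fold above this sum, then 17.5-fold, 52.8-fold, 70.1-fold and 132-fold in stage order. Reads listed on both copies of a globin count for each copy in these ratios, which raises them. Of the 8 hepatocyte markers 7 were called higher in the adult than at e12.5, against 12.7% of all genes, and their sum went from 1009 at e12.5 through 2995, 7240 and 8584 to 10092 in the adult, with Alb, which encodes albumin, at 345 at e12.5 and 6248 in the adult. Neutrophil precursor markers summed to 114 at e12.5, 948 at e18.5 and 207 at P7, whereas none of the 5 was listed in the adult. Macrophage and Kupffer cell markers summed to 7.60 at e12.5 and 97.2 in the adult, endothelial markers to 24.4 and 157, and megakaryocyte markers to 14.4 and 0.281. The part of these cell types in the globin levels was not tested.

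**Figure D5:**
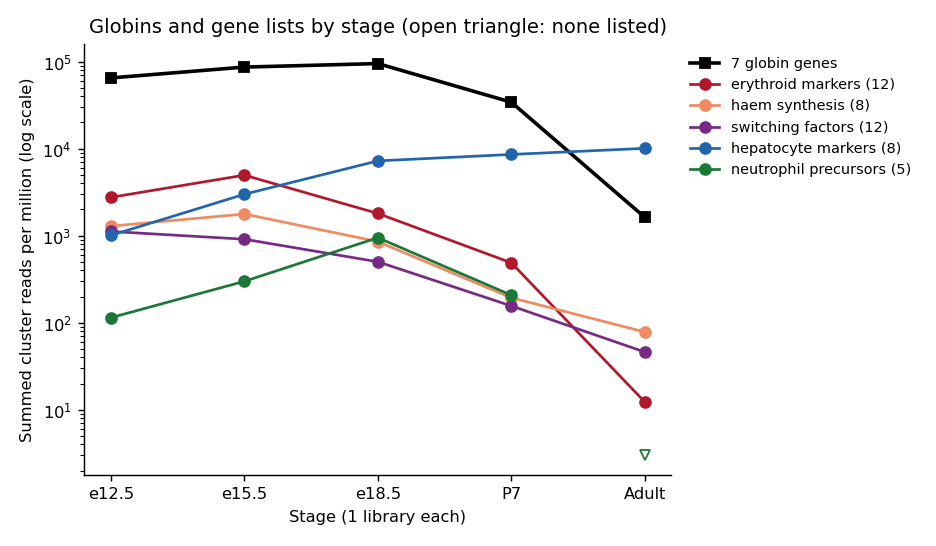
Summed cluster RPM (log axis) of the 7 globin genes and of 5 gene lists by stage, 1 library per stage, with the number of genes of each list in brackets and an open triangle where none was listed. Globins lie above all lists through P7, and in the adult the hepatocyte markers, at 10092, lie above the globins, at 1629.

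The genes whose levels followed the summed globins most closely were sought among 6806 genes with at least 20 reads in each library, by the distance between centred log2 levels over the 5 libraries. The nearest 5 were Fabp5, Ehbp1l1, Pla2g16, Cdkn1b and Hist3h2a, at distances of 0.69 to 0.94. Hba-a1 itself lay at 0.12, Hbb-bs at 1.17 and Hbb-bt at 1.21. Fabp5 had 24.7 RPM, 29.8, 50.6, 15.8 and 1.005 in stage order.

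Of the symbols that the rule finds beside the 7 genes, the alpha-globin pseudogene Hba-ps4 had 805 RPM, 1814, 1306, 323 and 9.16 in stage order. Its clusters were listed under exon or intron. Hbb-bh2 had 35 reads at e15.5 after 11 at e12.5, Hbb-bh0 had 24 at e12.5 and Hbb-bh3 had 23 at e15.5, and none of the 3 was listed later.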

How the data were processed

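Livers were analysed by Ago HITS-CLIP at 5 stages, 1 library each. The methods name biological replicates for the Ago2 pulldown, and the study's totals name a further e18.5 replicate, but the labels give 1 sample a stage, and whether a second list holds a replicate is not known, so no test between stages was made. The authors preprocessed reads with the FASTX-Toolkit, mapped them with Bowtie to mm10 and miRBase precursors, grouped overlapping reads into clusters, annotated these and scanned them for miRNA seeds (Bowtie and FASTX-Toolkit versions not given in the sources used here). The deposited read column is a signal with no scaling, named as a highest read number, and was taken as that of a site in all tables, although its name at e12.5 differs and whether the measure is the same is not known. The deposited conservation and free energy columns are scores, and neither supports a result here.

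Clusters of both lists of a table that overlap were joined, and the highest read numbers of the lists were added. A gene's level is its clusters' reads per 1000000 of the summed cluster reads. Ratios used a floor of 5 reads for absent genes, and calls used a 4-fold difference and at least 20 reads in 1 library. Positions came from GENCODE gene models on GRCm38, and sites past the end of a model were left out of the miRNA counts. Of 450 miRNA names, 394 matched RefSeq. Analyses used Python 3.11.15, pandas 2.3.3, NumPy 2.4.6, SciPy 1.17.1 and matplotlib 3.10.9, and were tested on simulated data.

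Named were all globin genes, per gene the highest site in each library, sites of 12 abundant miRNAs, the 3 miRNAs with most globin reads in each library, the 5 nearest genes, and lists for haem synthesis, chaperone and haem export, switching factors and cell types. The members and lists were chosen with earlier results of these data known, and the stop codon stretch, its sites and the ratios of beta copies were singled out after their values were seen. Alternatives covered minimum reads, scaling, lists, copies, regions, strand, seed type and folds.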

Additional observations from a re-analysis of the deposited data

How the results depend on the processing

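No paired analysis was possible because each stage has 1 sample, and for the same reason no replicate could be left out. Ratios of reads and the embryonic-type share were held against their 95% counting intervals, and counts of genes, clusters and miRNAs against 1.5-fold. By these limits 50 values of the main results stayed within, 41 moved beyond and 2 reversed. The cause was not tested. Globins at e12.5 over the adult (39.9-fold) came to 32.4 with the study's library totals, 31.3 with the first list, 44.2 with the second list, 23.1 scaled to clusters with an mRNA region, 44.8 without the alpha-globin stop codon clusters and 1.20 with each cluster counted once. P7 over the adult (21.0) came to 21.3 with a minimum of 10 reads, 20.6 with copies counted once, 13.8 scaled to mRNA regions, 13.5 without the stop codon clusters and, reversed, 0.790 with each cluster counted once. e12.5 over e18.5 (0.684) came to 0.678 with the minimum, 0.766 with the study's totals, 0.511 and 0.928 with the first and second list, 0.682 with copies once, 0.882 scaled to mRNA regions, 0.757 with each cluster once and, reversed, 1.12 without the stop codon clusters. The study's total for e18.5 was used without that of its further replicate. Scaling to mRNA regions, leaving out the stop codon clusters and the lists of single genes were chosen after seeing the data. Alpha over beta reads came to 1.59, 1.40, 0.948, 1.13 and 0.675 in stage order with the stop codon clusters left out of both, reversed at e18.5 and in the adult. The cluster left out of Hbb-bs held its highest coding peak at e12.5, e15.5 and P7. Left out of the alpha genes alone, which takes most of their reads by construction, they reversed to 0.742, 0.520, 0.587, 0.618 and 0.579. Hbb-y at e15.5 over e12.5 (1.11) reversed to 0.739 in the first list and 0.875 scaled to mRNA regions, and Hbb-bh1 (0.543) to 1.14 in the second list.

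The embryonic-type share at e12.5 (0.461%) was 1.07% and 0.247% in the lists, 0.910% with copies once, 46.5% of clusters and 3.24% without the stop codon clusters. At e15.5 (0.242%) it was 0.337%, 0.208%, 0.476%, 44.8% and 1.12%. Globin clusters numbered 74 at e12.5 with lists not joined (43 joined) and 9 in the adult with copies once (14). miRNAs with a globin site numbered 265 with at least 7 matched bases, 50 with 8mers and 57 at 1000 or more per 1000000 (450). Genes lower at e18.5 than at e12.5 (3529) numbered 6386 at 2-fold and 1766 at 8-fold. Genes lower at P7 than at e18.5 (2633) numbered 5108, 1166 and, scaled to mRNA regions, 1725. All 7 globin genes were lower there at 2-fold (3 at 4-fold). Genes lower in the adult than at P7 (4320) numbered 7107 and 2436, and than at e12.5 (7528) 4510 at 8-fold. Scaling to mRNA regions moved the median log2 ratio of all genes by -0.37, 0.55, 0.60 and 0.79 in the 4 comparisons and the lower share of calls from 57.9% to 67.3% (e12.5 to e18.5), from 48.9% to 31.4% (e18.5 to P7, 33.8% with the study's totals), from 84.8% to 69.0% and from 76.9% to 63.4%, with the same numbers of globin genes called lower.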
